A study of Mus musculus with 2 samples.

Results

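The genes described here make, modify and move the lipids of lung cells: fatty acids, cholesterol, and the phosphatidylcholine of pulmonary surfactant. The set was given by name and holds 37 genes, all of them present among the 17790 genes of the deposited count table. By role, 4 genes make palmitate and its precursors (Acly, Acaca, Fasn, Me1), 4 desaturate fatty acids (Scd1, Scd2, Fads1, Fads2), 3 elongate them (Elovl1, Elovl5, Elovl6) and 3 couple them to coenzyme A (Acsl1, Acsl4, Acsl5). A further 12 genes encode enzymes of the mevalonate and sterol pathway (Hmgcs1, Mvd, Idi1, Fdps, Fdft1, Sqle, Lss, Cyp51, Msmo1, Nsdhl, Sc5d, Dhcr7), and 5 regulate these pathways (Srebf1, Srebf2, Scap, Insig1, Insig2). The remaining genes serve phosphatidylcholine synthesis (Chka, Pcyt1a, Lpcat1) or lipid uptake and transport (Fabp5, Lpl, Abcg1).

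Alveolar type 2 (AT2) cells secrete surfactant, a film rich in dipalmitoyl phosphatidylcholine that lowers surface tension in the alveoli, and they synthesise much of its fatty acid themselves. Acetyl-CoA carboxylase (Acaca) and fatty acid synthase (Fasn) make palmitate, and the stearoyl-CoA desaturases Scd1 and Scd2 introduce a double bond into saturated acyl chains. Lpcat1 re-acylates lysophosphatidylcholine in the surfactant remodelling route. Transcription of sterol and fatty acid genes is driven by the SREBP factors (Srebf1, Srebf2), which Scap escorts out of the endoplasmic reticulum and Insig1 and Insig2 hold back when sterols are plentiful. Alveolar macrophages take up and clear surfactant lipid, with Abcg1 exporting cholesterol from them.

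The study measured single cells of mouse lung adenocarcinoma from C57BL/6 animals. Microdissected tumours were dissociated and split with magnetic CD45 beads into a CD45-negative and a CD45-positive library, labelled LucOS.45N and LucOS.45P and written here as CD45neg and CD45pos. The meaning of LucOS, the tumour model, the age of the animals and their number per library are not stated in the labels. Each fraction gave 1 library, so no difference below has a replicate check, and each interval covers counting error only.

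Levels are given as CPM, the unique molecular identifiers (UMI) of a gene summed over a group of cells and scaled to a group total of 1000000. The CD45neg library held 3957 cells with a median of 7710 UMI per cell, and the CD45pos library 11432 cells with a median of 3376. The barcode sequence of 57 cells occurred in both libraries. The authors' annotation names 7 classes: AT2 (1677 cells in CD45neg and 1324 in CD45pos), AT1 (285 and 120), Ciliated (108 and 116), Endothelial (1249 and 2172), Fibroblast (356 and 171), Erythrocyte (174 and 91) and Immune (108 and 7438). No class is set aside for tumour cells. Class markers in CD45neg followed the AT2 label, with surfactant and other AT2 markers at a summed 165988 CPM there and at 4080 to 19063 CPM in the other classes. They went against the AT1 label: all 7 alveolar type 1 markers had a UMI in those cells, but their sum was 1003 CPM, below the 2754 CPM of the AT2 class, and the class is therefore called the cells deposited as AT1. The cells deposited as Fibroblast carried mesothelial markers at 6530 CPM, against at most 182 CPM in any other CD45neg class. In CD45pos the AT2 class held leukocyte markers at 1491 CPM, against 103 CPM in CD45neg, so values from CD45pos AT2 are given second.

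Member levels differed widely between classes. In CD45neg 13 members were highest in AT2, 12 in Immune cells (8 of them sterol genes), 7 in the cells deposited as Fibroblast, 4 in Ciliated cells and 1 in Endothelial cells. AT2 was also the highest class for 13 members in CD45pos, and 29 of the 37 had the same highest class in both libraries. The highest class was not counted over all genes, so these counts are not read as particular to the members. For 12 members the interval of the ratio between the first and second class in CD45neg included 1, so their order is not settled at this depth. Erythroid markers took 763635 CPM of the Erythrocyte class, and their part in the member levels of that class was not tested.

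**Figure D1:**
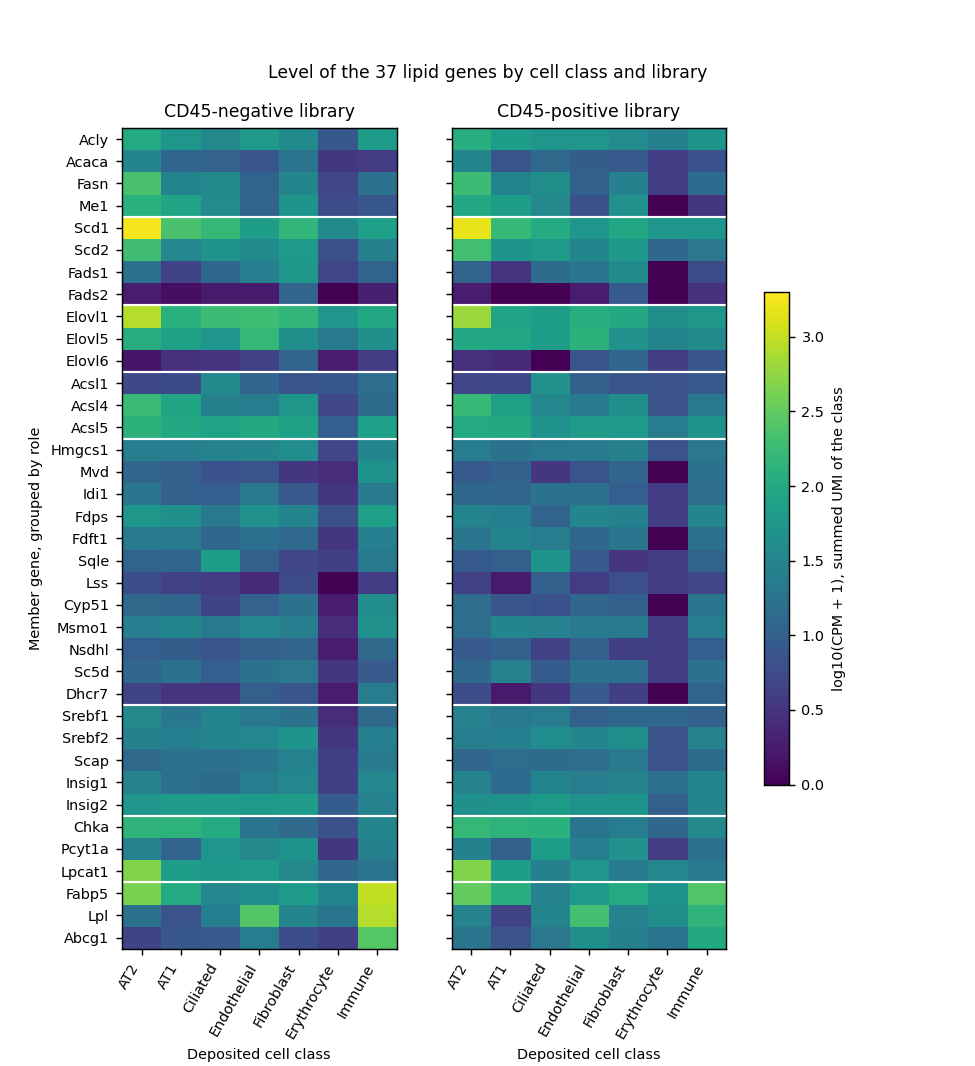
Levels of the 37 members (rows, ordered by role with white lines between roles) in the 7 deposited classes (columns), CD45neg left and CD45pos right; colour is log10 of CPM + 1. Scd1, Elovl1 and Lpcat1 stand out in AT2 in both panels, while Fabp5, Lpl and Abcg1 stand out in Immune cells of CD45neg.

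Fatty acid synthesis, desaturation and the surfactant acyltransferase were higher in AT2 cells than in the other CD45neg cells (1677 against 2280 cells). A gene was called higher or lower where both sides together held at least 50 UMI and the CPM ratio was at least 2 or at most 0.5. By this rule 12 of the 37 members were higher and 5 lower, where 6.81% of the 12854 genes tested were higher and 27.8% lower. The median ratio was 1.34 over the members and 0.70 over all genes tested, so the other cells stood above AT2 for most genes.

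All 4 genes of palmitate synthesis were higher in AT2. Fasn stood at 223 CPM in AT2 and 19.8 CPM in the other cells, 11.3-fold (interval 10.2 to 12.5). Acaca, the carboxylase before it, stood at 30.6 against 9.14 CPM, 3.35-fold (2.85 to 3.95). Suppliers of the pathway were also higher: Me1, an enzyme that yields NADPH, 3.6-fold (3.32 to 3.91), and Acly, which yields cytosolic acetyl-CoA, 2.08-fold (1.93 to 2.24). In CD45pos the AT2 levels were 183 CPM for Fasn, 31.2 for Acaca, 96.3 for Me1 and 115 for Acly, each again the highest of the 7 classes.

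Scd1 had the largest ratio of all members, 1802 CPM in AT2 against 123 CPM, 14.7-fold (14.1 to 15.3). By class in CD45neg, Scd1 stood at 223 CPM in the cells deposited as AT1, 158 in Ciliated, 149 in Fibroblast, 72.9 in Immune, 70.0 in Endothelial and 36.1 in Erythrocyte cells. AT2 stood far above the rest, and in CD45pos it stood at 1572 CPM against 53.2 to 161 in the others. A UMI of Scd1 was found in 91.0% of AT2 cells (median depth 8143 UMI) and in 36.1% of Endothelial cells (median 6808), and in 58.9% and 7.45% once each cell was thinned to 1000 UMI. Sftpc, the surfactant protein C gene, was also found outside AT2. Scaling it by the Scd1 to Sftpc ratio of AT2 would give Scd1 174 CPM in Ciliated, 55.8 in Endothelial, 61.9 in Erythrocyte and 44.4 in Immune cells. It would give 55.0 CPM in the cells deposited as AT1 and 93.5 CPM in the Fibroblast class. The measured values were below these in Ciliated and Erythrocyte cells and above them in the other 4 classes. This scaling takes all Sftpc outside AT2 as free RNA from AT2 cells. The part of free RNA in the Scd1 levels was not tested.

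Scd2, the close paralogue of Scd1, was higher at 194 against 37.7 CPM, 5.14-fold (4.77 to 5.55). How reads shared by the 2 genes were counted is not stated in the labels. The desaturases of polyunsaturated chains had another distribution. Fads1 was highest in the cells deposited as Fibroblast at 57.2 CPM, 2.34-fold (1.93 to 2.84) above Endothelial cells, with 16.5 CPM in AT2. Fads2 was called lower in AT2, at 0.808 against 2.15 CPM (2.66-fold lower, 1.47 to 5.12), and was also highest in the Fibroblast class at 10.8 CPM. In CD45pos the Fibroblast class was again the highest for both, at 36.8 and 7.58 CPM.

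The elongases split by member. Elovl1, which extends saturated and monounsaturated very long chains, was higher in AT2 at 852 against 153 CPM, 5.57-fold (5.36 to 5.78). Elovl6, which extends palmitate, was lower at 0.593 against 3.81 CPM, 6.43-fold (3.42 to 13.4), and highest in the Fibroblast class at 10.2 CPM. Elovl5, which acts on polyunsaturated chains, was highest in Endothelial cells at 159 CPM, 1.40 times its 113 CPM in AT2, and stood at 131 and 98.2 CPM in CD45pos.

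Of the acyl-CoA synthetases, Acsl4, which prefers arachidonate, was higher in AT2 at 179 against 42.1 CPM, 4.25-fold (3.95 to 4.57). Acsl1 was lower at 4.31 against 10.2 CPM, 2.37-fold (1.83 to 3.10). Its highest class was Ciliated in both libraries, at 36.6 and 46.2 CPM. Acsl5 was not called at 1.49-fold, with 132 CPM in AT2 and 100 in Endothelial cells.

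Within phosphatidylcholine synthesis, Lpcat1 stood at 474 CPM in AT2 and 54.4 CPM in the other cells, 8.72-fold (8.21 to 9.26), and at 465 CPM in AT2 of CD45pos. Choline kinase, Chka, was higher at 138 against 50.3 CPM, 2.75-fold (2.56 to 2.95). Its AT2 level was close to that of the cells deposited as AT1 (1.03-fold, 0.95 to 1.12). Pcyt1a, which makes CDP-choline from the product of Chka, was not called (0.96) and was highest in Ciliated cells at 53.9 CPM in CD45neg and 68.1 in CD45pos.

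The sterol genes did not share the AT2 pattern. Only Lss, the cyclase that closes the sterol ring, passed the limit of 2, at 5.28 against 2.51 CPM (2.10-fold, 1.5 to 2.98), and 7 of the 12 were above 1. Their summed level was 208 CPM in AT2 and 194 CPM in the other cells, 1.07-fold (1.03 to 1.12). With the 50 most abundant genes left out of the total it stood at 1.29-fold (1.24 to 1.35), so this ratio moved with the total used. No regulator was called: Srebf1 was nearest at 34.9 against 18.3 CPM, 1.91-fold (1.68 to 2.17), Insig1 stood at 1.34 (1.18 to 1.51), and Srebf2 (0.85), Insig2 (0.87) and Scap (0.67) were below 1. By contrast the summed desaturases stood at 2013 against 184 CPM, 10.9-fold (10.6 to 11.3), and the summed genes of palmitate synthesis at 484 against 114 CPM, 4.25-fold (4.06 to 4.44).

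Several sterol genes had their highest level elsewhere. Sqle, the squalene epoxidase, stood at 67.5 CPM in Ciliated cells of CD45neg, 3.31-fold (2.04 to 5.59) above Immune cells, and at 49.6 CPM in CD45pos, with 10.5 and 7.52 CPM in AT2. Mvd, the decarboxylase of the mevalonate branch, was highest in Immune cells at 47.6 CPM, 4.25-fold above AT2, and again in CD45pos at 16.7 CPM. Cyp51 (40.8 and 18.4 CPM) and Dhcr7 (24.3 and 10.2 CPM), which act late in the pathway, were likewise highest in Immune cells of both libraries, although those of CD45neg were only 108 cells.

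The uptake and transport genes were divided. Fabp5, a cytosolic fatty acid carrier, was called higher in AT2 at 426 against 103 CPM, 4.15-fold (3.96 to 4.35), yet the Immune cells of CD45neg stood above AT2 at 996 CPM. In CD45pos that order was turned, with 325 CPM in AT2 and 254 CPM in Immune cells, 1.28-fold (1.22 to 1.34). Lpl, the lipase that frees fatty acids from lipoproteins, was lower in AT2 at 16.6 against 164 CPM, 9.83-fold (8.75 to 11.1). Its highest levels were in Immune (859 CPM) and Endothelial cells (261 CPM) of CD45neg, and in CD45pos Endothelial cells stood above Immune cells, at 204 and 138 CPM. Abcg1 was lower in AT2 at 3.72 against 25.8 CPM, 6.94-fold (5.40 to 9.05), and stood at 268 CPM in Immune cells, 11.5-fold above Endothelial cells.

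**Figure D2:**
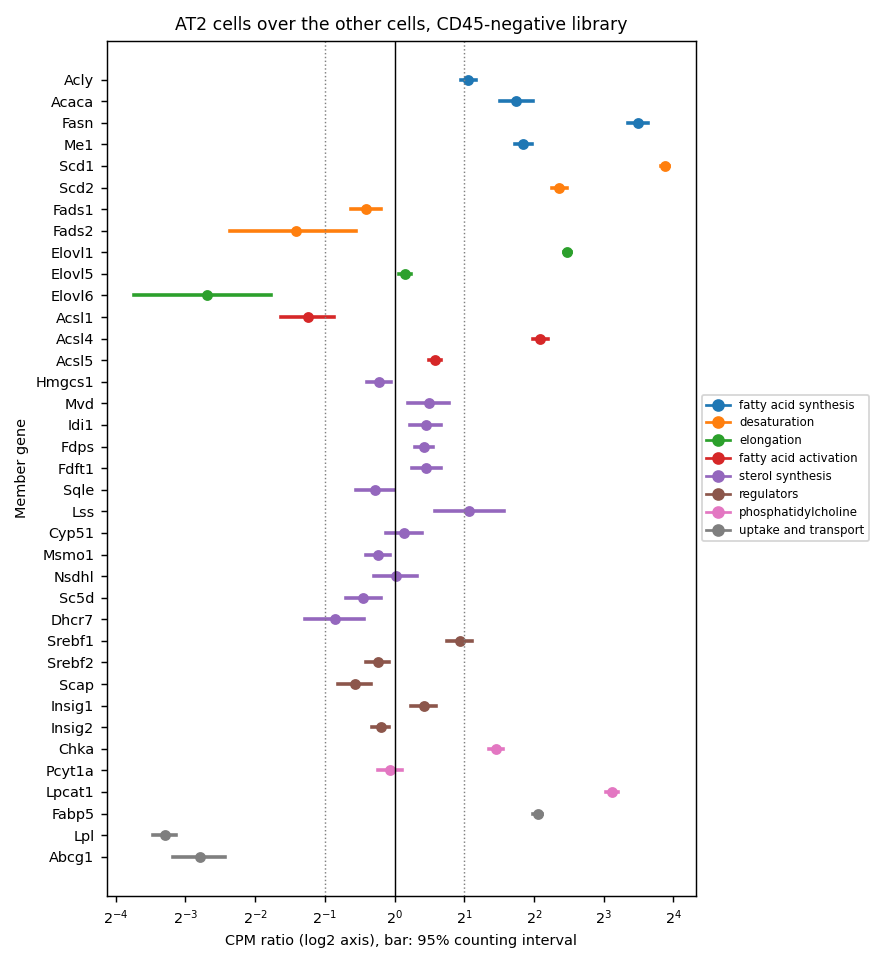
CPM ratio of AT2 to the other CD45neg cells for each member on a log2 axis, with 95% counting intervals as bars, dotted lines at 0.5 and 2, and colour by role. Scd1 (14.7) and Fasn (11.3) lie at one end and Lpl, Abcg1 and Elovl6 at the other, while the sterol genes lie around 1.

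Other lipid genes outside the 37 were read from 5 lists of related pathways. Of 13 further cholesterol genes 3 were higher in AT2; the kinase Pmvk stood at 4.77-fold (4.42 to 5.16), Tm7sf2 at 3.56 and Acat2 at 2.50. Of 11 phospholipid genes 2 were higher, the surfactant lipid transporter Abca3 at 6.64-fold and the CDP-diacylglycerol synthase Cds1 at 2.84-fold, and its paralogue Cds2 was lower (0.41). None of 13 other fatty acid and triglyceride genes was higher and 2 were lower, Thrsp (0.29) and Dgat2 (0.39). In the sterol efflux list Apoe (0.28) and Mylip (0.37) were lower, and of 9 oxidation genes Cpt1a (0.38) was lower.

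The cells deposited as AT1 held the same AT2-rich genes at lower levels (285 against 1677 cells, median depth 14541 against 8143 UMI). Of 35 members with enough UMI none was higher and 12 were lower than in AT2, where 11% of the 10974 genes tested were higher and 11.9% lower. The members' median ratio was 0.66 against 1.12 over all genes, and Fads2 and Elovl6 had too few UMI. Scd1 stood at 223 against 1802 CPM, 8.09-fold lower (7.64 to 8.58), Fasn at 7.47-fold lower (6.38 to 8.81), Elovl1 at 6.95-fold lower and Lpcat1 at 6.85-fold lower. Scd2 (5.91-fold), Fads1 (4.65), Fabp5 (4.01), Acaca (2.83), Lpl (2.79), Pcyt1a (2.62), Acsl4 (2.10) and Idi1 (2.02) made up the rest of the 12. The comparison shares its AT2 cells with the one above.

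The sterol genes were again the exception, with a summed 193 CPM against 208, 0.93-fold (0.86 to 0.99). Without the 50 most abundant genes in the total that sum stood at 0.77-fold (0.72 to 0.83). With the full total, Idi1 was the only one of 12 called lower. Sc5d (1.5), Msmo1 (1.28) and Sqle (1.04) were above 1 without a call and Hmgcs1 stood at 0.97. Abcg1 (1.86, 1.21 to 2.81), Scap (1.28), Insig2 (1.26) and Acsl1 (1.04) were also above 1 without a call, while Srebf1 (0.54) and Insig1 (0.51) lay just inside the limit. In the lists of related pathways 4 of 13 cholesterol genes were lower and none higher, among them Acat2 (0.21) and Pmvk (0.22). Of 11 phospholipid genes Abca3 (0.15) and Chpt1 (0.25) were lower and Lpcat4 (2.39) higher. Of 10 fatty acid and triglyceride genes 3 were higher and 2 lower, with Pparg at 2.94, Plin2, which coats lipid droplets, at 2.80 and Lpin1 at 0.15.

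Lyz1, a lysozyme gene, was used to divide the AT2 cells. No Lyz1 UMI was found in 71.0% of the CD45neg AT2 cells, so the lower quartile limits coincided at 0 and the contrast reduced to the 419 cells of the top group, above 62.7 CPM, against the 1190 cells without Lyz1. None of 35 members was called higher or lower, where 0.388% of the 10315 genes tested were higher and 3.33% lower. The median ratio was 1.21 over the members and 0.87 over all genes, and 27 of the 35 were above 1. Scd1 stood at 2524 against 1604 CPM, 1.57-fold (1.54 to 1.61), and Fasn at 315 against 193 CPM, 1.63-fold (1.53 to 1.75). Fads1 (1.77, 1.38 to 2.25), Dhcr7 (1.68), Lss (1.62), Idi1 (1.54), Elovl1 (1.54), Fdps (1.49) and Lpcat1 (1.41) were of the same order, and Acsl1 (0.77), Insig2 (0.80), Sc5d (0.83) and Lpl (0.84) were lowest. Insig1 stood at 1.36 and Srebf1 at 1.29. AT2 markers were at 230326 CPM in the top group and 141689 in the cells without Lyz1, with median depths of 9303 and 7617 UMI, and their part in these ratios was not tested.

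In CD45pos 94.2% of AT2 cells had no Lyz1, which left 77 against 1247 cells. Of 32 members 5 were higher and none lower, where 1.79% of the 8659 genes tested were higher and 6.65% lower. The 5 were Fdps (3.11-fold, 2.18 to 4.34), Idi1 (2.75), Nsdhl (2.31, 1.0 to 4.75), Lpl (2.29) and Cyp51 (2.12), of which 4 are sterol genes. The sterol sum was 279 against 146 CPM, 1.91-fold (1.60 to 2.26), while Scd1 stood at 1.47 and Fasn at 1.59. Fdft1 (1.84) and Msmo1 (1.72) of the sterol genes, Srebf1 (1.49) and Lpcat1 (1.17) were above 1 without a call. Abcg1 (0.58, 0.21 to 1.30), Insig1 (0.60, 0.29 to 1.13), Pcyt1a (0.80) and Insig2 (0.81) were lowest. Of the AT2 cells without Lyz1 82.5% held UMI of at least 2 leukocyte markers, and once such cells and the deepest cells were left out (14 against 217 cells) 2 of 13 testable members were higher. No sterol gene had enough UMI to be called there, and the sterol sum stood at 3.26-fold (2.15 to 4.81). Among cells of middle depth the sterol sum stood at 2.98-fold (2.31 to 3.80), with 3 of 4 testable sterol genes higher, and Lpl turned to 0.646. For these smaller sets of cells the share of all genes called was not counted.

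The sterol genes stood apart in the few AT2 cells with abundant Lyz1. These cells were examined after the member levels had been seen in 10 groupings of cells, so the limit of 10 UMI was set with the result in view. In CD45neg 36 cells held 13 to 423 Lyz1 UMI (median 69.5), at a median depth of 8081 UMI against 7617 in the 1190 cells without Lyz1. Of 33 members 13 were higher and none lower, where 4.86% of the 9793 genes tested were higher and 12% lower. The median ratio was 1.51 over the members and 0.91 over all genes.

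Of 11 testable sterol genes 9 were higher, with a median ratio of 3.17. Their summed level was 199 CPM in cells with no Lyz1 UMI, 195 with 1, 218 with 2 to 9 and 553 with 10 or more. In CD45neg only the last bin therefore stood apart. In CD45pos the same bins gave 146, 241, 235 and 492 CPM, so the level there was already higher in cells with 1 UMI and rose again in the last bin. The ratio of the extreme bins was 2.77 (2.39 to 3.19) in CD45neg and 3.36 (2.41 to 4.58) in CD45pos, where the upper bin was 16 cells and 42 sterol UMI.

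**Figure D3:**
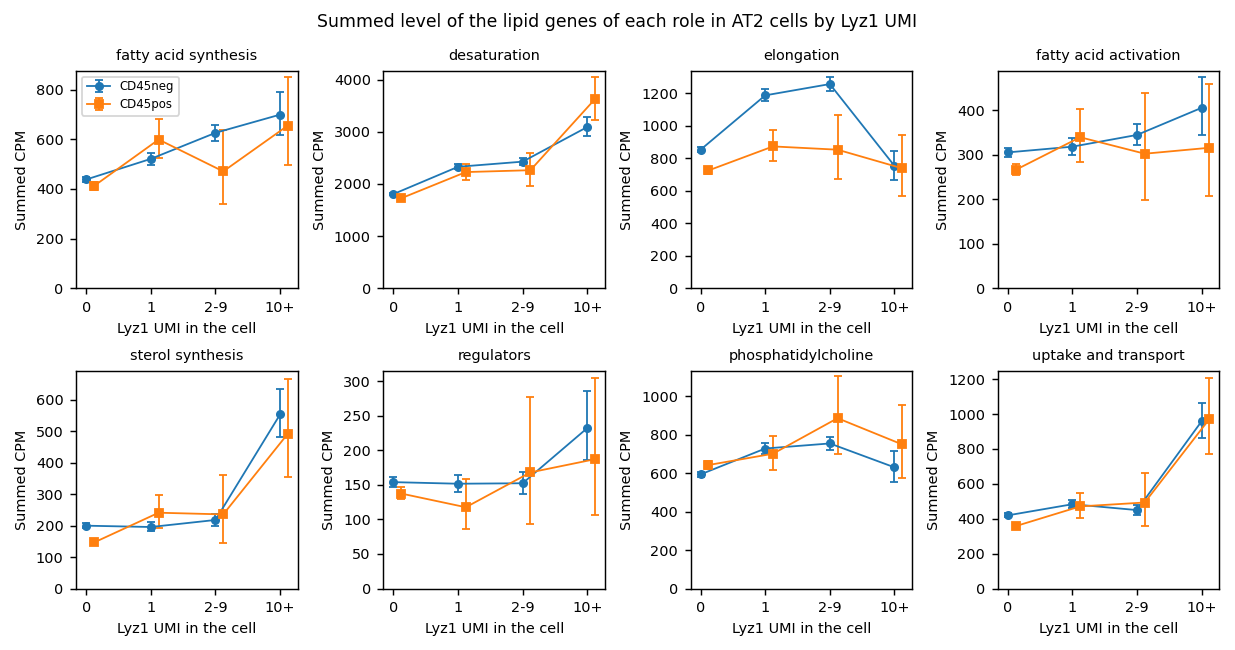
Summed CPM of each role (8 panels) in AT2 cells with 0, 1, 2 to 9 and 10 or more Lyz1 UMI, in both libraries, with 95% counting intervals as bars. The sterol panel steps up in the last bin, from 218 to 553 CPM in CD45neg and from 235 to 492 CPM in CD45pos. In CD45pos it also rises from the first to the second bin.

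By enzyme in CD45neg, Fdps, which makes farnesyl pyrophosphate, stood at 166 against 50.3 CPM, 3.29-fold (2.49 to 4.28) on 62 UMI in the 36 cells. Msmo1, a sterol methyl oxidase, stood at 77.4 against 24.4 CPM, 3.17-fold (2.09 to 4.65), and Hmgcs1, the synthase that feeds the mevalonate pathway, at 56.1 against 24.1 CPM, 2.33-fold (1.42 to 3.63). Cyp51, the lanosterol demethylase, stood at 48.1 against 12.1 CPM, 3.96-fold (2.29 to 6.49). Sqle (3.88, 2.11 to 6.65), Nsdhl (3.52, 1.70 to 6.56), Lss (3.31, 1.17 to 7.66), Idi1 (2.63, 1.5 to 4.31) and Fdft1 (2.06, 1.16 to 3.41) were also called, on few UMI (6 for Lss and 11 for Nsdhl). Sc5d (1.12) and Mvd (0.89) were not, on 5 and 4 UMI, and Dhcr7 had too few UMI to be read.

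Insig1, itself a target of the SREBP factors, was the only regulator called in CD45neg, at 93.4 against 28.1 CPM, 3.33-fold (2.28 to 4.72). Srebf1 stood at 0.90 (0.45 to 1.63) and Srebf2 at 1.40 (0.76 to 2.39). Among the other roles Fabp5 was higher at 918 against 398 CPM, 2.31-fold (2.06 to 2.57), with Lpl at 2.13 and Fads1 at 2.04 (0.999 to 3.74) on 14 and 11 UMI. Scd1 (2843 against 1604 CPM, 1.77-fold, 1.67 to 1.89) and Fasn (376 against 193 CPM, 1.95-fold, 1.63 to 2.31) stayed under the limit in CD45neg. Lpcat1 (1.11), Elovl1 (0.89), Elovl5 (0.87) and Scap (0.90) were near 1, and the summed elongases stood at 753 against 852 CPM, 0.88-fold (0.78 to 0.99). Outside the 37, Acat2 (3.21) and Pmvk (2.22) of cholesterol synthesis were higher, and Apoe was 4.03-fold higher (3.13 to 5.14).

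**Figure D4:**
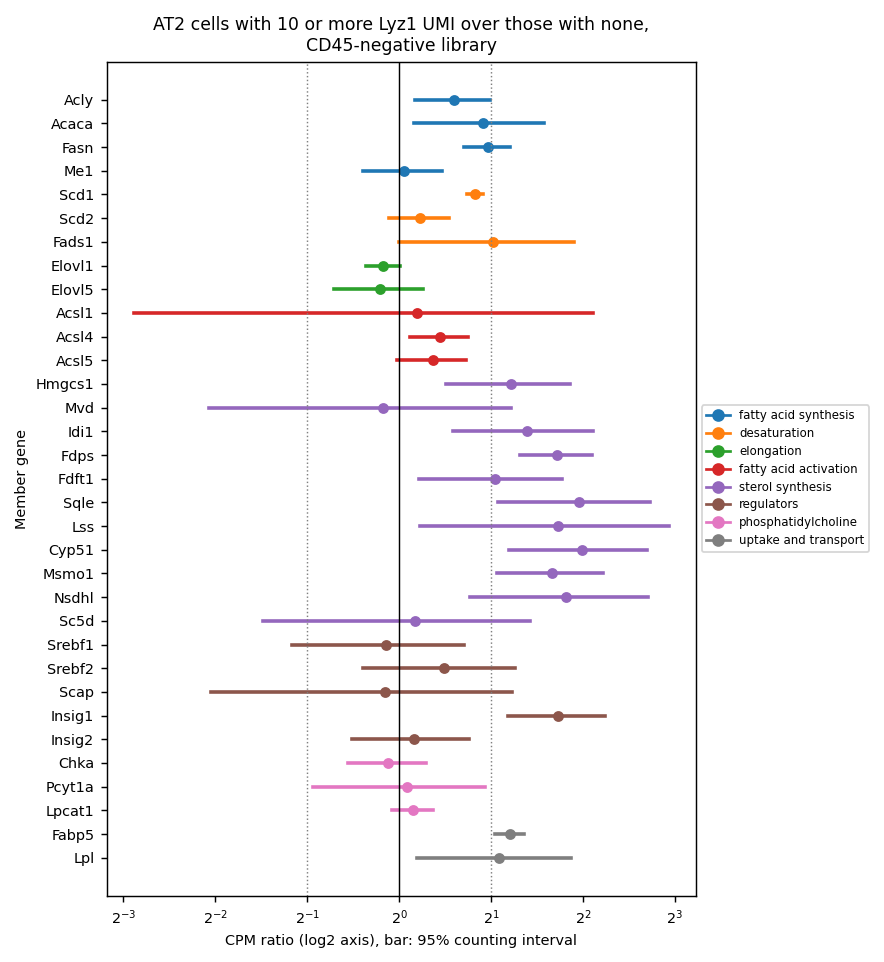
CPM ratio of CD45neg AT2 cells with 10 or more Lyz1 UMI to those with none for the 33 members with at least 50 UMI, log2 axis, 95% counting intervals, dotted lines at 0.5 and 2, colour by role. Most of the members beyond 2 are sterol genes, with Insig1, Fabp5, Lpl and Fads1 beside them, and the bars of the rarer genes are wide.

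Other values moved with this grouping. Cycling markers stood at 563 against 129 CPM, and 2 of the 36 cells (5.56%) held at least 3 of them against 3.78% of the 1190. Without such cells the sterol ratio was 3.18 (2.73 to 3.69). AT2 markers stood at 241239 against 141689 CPM, Sftpc alone at 188922 against 102344 CPM and the lysozyme paralogue Lyz2 at 26709 against 12870 CPM. With the 50 most abundant genes left out of the total the sterol ratio was 3.06, and among cells of matched depth it was 3.38 (18 against 441 cells), where 7 of 25 members were called. The share of all genes called at matched depth was not counted. Leukocyte markers stood at 80 against 97 CPM, and C1qa, C1qb and C1qc of macrophages were at 0 in the 36 cells.

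In the 16 cells of CD45pos 13 of 32 members were higher and 1 lower, beside 9.12% and 8.82% of the 8450 genes tested. Of 10 testable sterol genes 7 were higher. Idi1 stood at 8.84 (3.68 to 18.4), Nsdhl at 6.59 (1.73 to 18.0) and Fdps at 4.53 (2.14 to 8.53). The intervals of the others included 1, on 3 to 5 UMI: Cyp51 3.63 (0.97 to 9.61), Fdft1 2.62 (0.70 to 6.89), Hmgcs1 2.55 (0.82 to 6.08) and Msmo1 2.55 (0.52 to 7.67). Here Scd1 (3347 against 1519 CPM, 2.20-fold, 1.95 to 2.48) and Fasn (410 against 175 CPM, 2.34-fold, 1.62 to 3.27) were called higher too; whether the libraries differ was not tested. Fabp5 (2.77, 2.17 to 3.50), Lpl (3.57), Fads1 (3.46) and Srebf2 (2.37, 0.76 to 5.65) completed the 13, the last 2 on 3 and 5 UMI.

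Insig1 was not called in these cells, at 0.78 (0.09 to 2.84) on 2 UMI, where it had been 3.33-fold higher in CD45neg. Srebf1 stood at 1.74 (0.47 to 4.54) and Lpcat1 at 1.10, Me1 was the 1 lower member on 4 UMI, and Elovl5 (0.71) and Abcg1 (0.62) were below 1. Pcyt1a and the sterol gene Mvd had no UMI in the 16 cells, against 27.3 and 7.54 CPM in the cells without Lyz1. At this number of cells neither could be called lower. Of the 16 cells 68.8% held at least 2 leukocyte markers, and 5 cells remained without them and without the deepest cells, with a sterol ratio of 6.20 (3.38 to 10.6).

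Promoter sequences of some genes that carry these results are printed here for reference, chosen after the values were known. They come from RefSeq on build GRCm38.p6, run 5′ to 3′ on the gene's strand from 250 bases before the start site to 50 after it, and 28 of the 37 members had an entry. Capitals mark CCAAT, the box bound by the factor NF-Y, and TCACNCCAC, a core of the sterol regulatory element, on either strand. The first 4 are sterol-pathway or regulator genes called higher with abundant Lyz1 in CD45neg, and the last 2 are genes called higher in AT2 than in the other CD45neg cells.
Hmgcs1 (chr13:119690101-119690400, plus strand): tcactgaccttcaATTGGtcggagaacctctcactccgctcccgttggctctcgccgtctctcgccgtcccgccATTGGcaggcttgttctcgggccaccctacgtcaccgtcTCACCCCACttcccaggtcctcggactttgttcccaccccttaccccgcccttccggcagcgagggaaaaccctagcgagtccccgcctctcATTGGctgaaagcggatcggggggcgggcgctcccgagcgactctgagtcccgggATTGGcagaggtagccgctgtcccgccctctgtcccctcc
Cyp51 (chr5:4104648-4104947, minus strand): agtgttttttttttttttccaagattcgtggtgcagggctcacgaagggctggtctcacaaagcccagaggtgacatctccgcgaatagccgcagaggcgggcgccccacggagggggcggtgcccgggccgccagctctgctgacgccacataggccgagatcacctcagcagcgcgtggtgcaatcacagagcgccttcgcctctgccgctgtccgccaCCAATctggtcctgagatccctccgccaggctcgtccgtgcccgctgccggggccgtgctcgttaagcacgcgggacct
Nsdhl (chrX:72918271-72918570, plus strand): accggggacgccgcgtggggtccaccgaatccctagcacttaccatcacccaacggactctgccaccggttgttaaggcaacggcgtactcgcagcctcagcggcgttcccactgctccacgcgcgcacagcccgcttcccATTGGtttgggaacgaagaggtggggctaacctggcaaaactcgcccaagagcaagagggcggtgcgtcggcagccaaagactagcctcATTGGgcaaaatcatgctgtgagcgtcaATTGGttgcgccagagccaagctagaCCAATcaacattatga
Insig1 (chr5:28071162-28071461, plus strand): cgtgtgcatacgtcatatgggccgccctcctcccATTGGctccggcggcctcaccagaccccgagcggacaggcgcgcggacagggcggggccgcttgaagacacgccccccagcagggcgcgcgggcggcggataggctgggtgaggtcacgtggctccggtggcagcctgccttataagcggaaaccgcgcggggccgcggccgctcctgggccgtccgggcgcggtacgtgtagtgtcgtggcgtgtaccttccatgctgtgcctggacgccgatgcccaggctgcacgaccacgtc
Fasn (chr11:120824498-120824797, minus strand): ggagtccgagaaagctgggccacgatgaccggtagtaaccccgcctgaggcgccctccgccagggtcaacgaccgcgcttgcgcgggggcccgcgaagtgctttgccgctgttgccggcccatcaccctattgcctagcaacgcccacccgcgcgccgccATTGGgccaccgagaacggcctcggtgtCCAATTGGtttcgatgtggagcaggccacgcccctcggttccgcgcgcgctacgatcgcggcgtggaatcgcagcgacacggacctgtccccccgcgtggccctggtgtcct
Lpcat1 (chr13:73466981-73467280, plus strand): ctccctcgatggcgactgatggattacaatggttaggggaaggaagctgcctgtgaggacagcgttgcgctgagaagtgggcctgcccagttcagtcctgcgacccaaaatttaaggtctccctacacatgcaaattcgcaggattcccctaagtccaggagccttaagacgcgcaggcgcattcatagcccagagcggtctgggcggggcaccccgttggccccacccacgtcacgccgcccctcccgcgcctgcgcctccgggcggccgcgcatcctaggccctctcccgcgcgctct
CCAAT was found in the windows of all 9 sterol genes with an entry and of 21 of the 28 members (75%), against 41.1% of the 27025 genes of the table. GGGCGG, the GC box, was found in the same 9 and in 23 of the 28 (82.1%), against 38.2%. TCACNCCAC was found in 3 of the 28 (10.7%), against 1.44%: Hmgcs1, 137 bases before its start site, Acsl1 and Pcyt1a. These are letter matches on both strands in this window only, and the motifs can overlap GC-rich sequence that many promoters share.

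Further groupings of CD45neg AT2 cells, also set after levels had been seen, gave other patterns. AT2 cells with at least 5 UMI of Cldn4, a tight junction gene, numbered 71 against 1319 without it (median depth 19218 against 7648 UMI). Of 35 members 9 were lower and 1 higher, where 5.65% of the 9951 genes tested were lower and 13.3% higher, with a median ratio of 0.97 against 1.31 over all genes. Fasn (60.3 against 268 CPM, 4.44-fold lower, 3.65 to 5.45), Elovl1 (4.02-fold lower) and Scd1 (610 against 2170 CPM, 3.56-fold lower) led, followed by Lpcat1 (3.08), Lpl (3.07), Fads1 (2.85), Insig1 (2.50), Fabp5 (2.19) and Acsl4 (2.0). The 1 higher member, Abcg1, rested on 12 UMI (2.02, 0.97 to 3.88) and turned to 0.664 at matched depth. No sterol gene of 12 was called, with a sum of 270 against 203 CPM (1.33, 1.2 to 1.46). The nearest were Sc5d (1.95, 1.28 to 2.91), Nsdhl (1.72), Fdft1 (1.62), Cyp51 (1.51) and Mvd (1.48), and Insig2 (1.73), Acsl1 (1.66) and Srebf1 (0.87) were not called either. This count depended on depth: with each cell's Cldn4 count thinned to 3000 UMI (50 against 1499 cells) 6 of 12 sterol genes were higher and their sum stood at 1.79-fold (1.58 to 2.03). At matched depth 2 of 7 were higher with a sum of 1.17-fold (0.98 to 1.40), and without the 50 most abundant genes in the total the sum was 1.07-fold (0.97 to 1.18). How many of all genes were called in these settings was not counted, so the change is not read as particular to the sterol genes. AT2 markers stood at 40800 against 197079 CPM and AT1 markers at 4322 against 2161 CPM in the same cells, and their part in the result was not tested.

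AT2 cells with at least 3 of 6 cycling markers numbered 59 against 1447 without any (median depth 10058 against 7934 UMI). Of 35 members 5 were higher and 2 lower, where 11.1% of the 10193 genes tested were higher and 6.05% lower. Both counts lay near the share over all genes and are not read as particular to the members. The higher ones were Dhcr7 (2.91, 1.32 to 5.79), Sqle (2.65, 1.66 to 4.07), Sc5d (2.31, 1.44 to 3.56), Lss (2.12, 0.97 to 4.13) and Fabp5 (2.03), with Idi1 (1.92), Cyp51 (1.86) and Acsl5 (1.66) next and not called. Elovl1 (279 against 931 CPM, 0.30) and Scd1 (692 against 1987 CPM, 0.35) were lower, and Acsl4 (0.58), Fasn (0.66), Lpcat1 (0.60), Srebf1 (0.78) and Insig1 (0.78) were not called. The sterol sum was 313 against 200 CPM (1.56, 1.39 to 1.76), and AT2 markers stood at 89181 against 180179 CPM. With the 50 most abundant genes left out of the total, 2 members were higher and 3 lower, and the share over all genes was not counted there.

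Among Immune cells of CD45pos the uptake and transport genes and most sterol genes were higher in alveolar macrophage-like cells than in the other Immune cells. Clusters were made without the members, and 1006 cells carried alveolar macrophage markers (alveolar macrophage-like). Against the other 6432 Immune cells (median depth 3727 against 3121 UMI), 13 of 37 members were higher and 3 lower, where 11.4% of the 11026 genes tested were higher and 15.4% lower. The median ratio was 1.39 over the members and 0.98 over all genes.

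Every one of the 3 uptake and transport genes was higher in the alveolar macrophage-like cells. Lpl stood at 635 against 49.9 CPM, 12.7-fold (11.9 to 13.6), Abcg1 at 359 against 52.9 CPM, 6.79-fold (6.29 to 7.33), and Fabp5 at 851 against 148 CPM, 5.74-fold (5.47 to 6.02). Of the 12 sterol genes 8 were higher, with a sum of 343 against 162 CPM, 2.12-fold (1.99 to 2.25). Mvd stood at 40.5 against 12.5 CPM (3.24-fold), Hmgcs1 at 45.1 against 14.7 CPM (3.07-fold), Cyp51 at 2.73, Lss at 2.48, Idi1 at 2.45, Msmo1 at 2.42, Dhcr7 at 2.22 and Fdft1 at 2.18. Acsl1 (3.24) and Acly (2.05) completed the 13.

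The desaturases ran the other way. Scd1 stood at 28.0 against 57.7 CPM, 2.06-fold lower, Fads1 was 2.37-fold lower and Fads2 had 1 UMI in the macrophage-like cells. Sftpc, taken as a measure of free AT2 RNA, stood at 1182 against 1914 CPM, and the part of such RNA in the Scd1 value was not tested. Fasn (1.27), Srebf1 (1.52), Insig1 (1.29) and Lpcat1 (0.53) were not called. In the lists of related pathways 5 of 10 fatty acid and triglyceride genes were higher and 1 lower, led by Pparg (11.3), Plin2 (7.14) and Lpin1 (5.67). Of 9 oxidation genes 4 were higher and none lower, with the mitochondrial carnitine transferase Cpt1a at 3.48. Of 5 efflux genes Nr1h3 was higher (5.34) and Apoe (0.16) and Abca1 (0.47) were lower.

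Fabp5 was not highest in the macrophage-like cells. A dendritic-like cluster of 98 cells, led by Ccl22, Fscn1 and Ccr7, held it at 2380 CPM, with a sterol sum of 412 CPM (351 to 482). The sterol sums of the alveolar macrophage-like, C1q-positive macrophage-like, plasma-like, neutrophil-like and B-like groups were 343, 202, 188, 118 and 113 CPM. A cycling-like cluster of 123 cells, with alveolar macrophage markers at 10760 CPM, held Fabp5 at 421 CPM and was counted among the other Immune cells.

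The highest sterol sum of any cluster lay in an unnamed cluster of 106 cells led by Siglech, Cox6a2 and Ccr9, singled out after its value was seen. It stood at 603 CPM (529 to 684) on 242 UMI, with UMI of all 12 genes. Fdps stood at 154 CPM (118 to 198), Msmo1 at 97.1 CPM (69.1 to 133), Idi1 at 59.8 CPM and Sqle at 44.8 CPM there. Fabp5 (22.4 CPM), Lpl (24.9 CPM) and Abcg1 (34.9 CPM) stood below their levels in the alveolar macrophage-like cells. Erythroid markers stood at 11280 CPM and Sftpc at 2942 CPM in that cluster, and their part in the result was not tested.

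**Figure D5:**
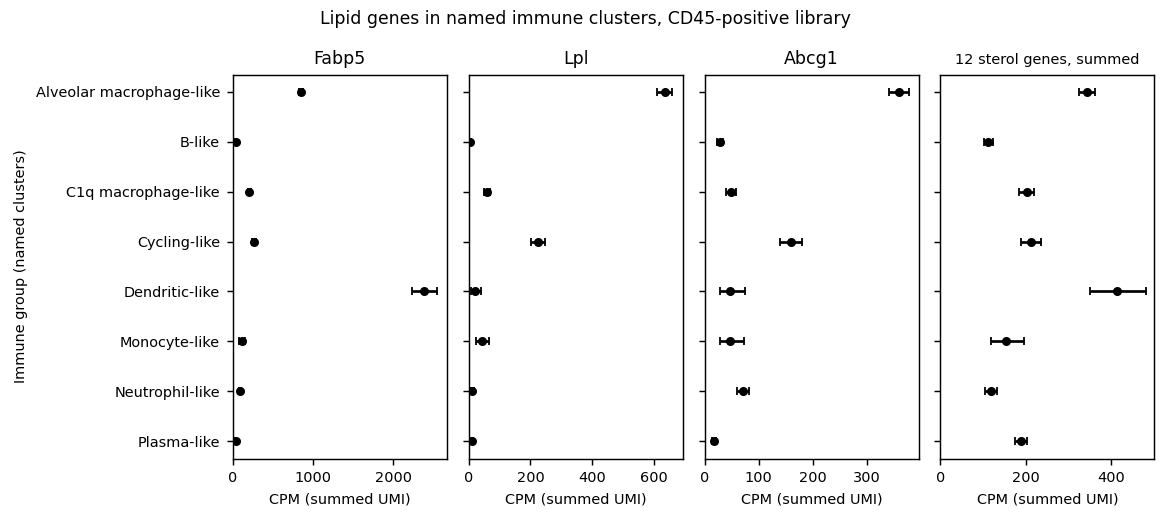
Levels of Fabp5, Lpl, Abcg1 and the 12 sterol genes summed in 8 named groups of CD45pos Immune cells, in CPM with 95% counting intervals as bars. Lpl and Abcg1 are highest in the alveolar macrophage-like group (635 and 359 CPM), and Fabp5 in the dendritic-like group (2380 CPM).

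The few Immune cells of CD45neg divided by the same markers. The 69 cells with UMI of at least 4 alveolar macrophage markers held Fabp5 at 1357 CPM, Lpl at 1137 CPM and Abcg1 at 361 CPM. The 39 cells with fewer held 138, 197 and 49.2 CPM. The sterol sums were 376 and 296 CPM. This split was also made after the levels had been seen.

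Members were called between the AT2 cells of the libraries about as rarely as genes in general. Of 35 members none was higher in CD45neg than in CD45pos and 1 was lower, where 1.9% of the 11315 genes tested were higher and 5.05% lower. Scd1 stood at 1802 and 1572 CPM (1.15), Fasn at 223 and 183 CPM (1.22) and Lpcat1 at 474 and 465 CPM (1.02). Fdps (1.83) and Msmo1 (1.72) were furthest above 1, followed by Fads1 (1.64), Idi1 (1.57), Lss (1.57), Mvd (1.49), Sqle (1.39) and Elovl1 (1.35). Srebf1 stood at 1.25 and Insig1 at 1.0, and Lpl (0.58), Dhcr7 (0.74) and Chka (0.88) were below 1. The sterol sum stood at 208 and 156 CPM (1.33). The lower gene was Abcg1, at 3.72 against 18.3 CPM, 4.91-fold (3.65 to 6.67), beside the leukocyte markers at 103 and 1491 CPM.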

How the data were processed

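The submitters' series design text records that libraries were made with the 10x Genomics 3′ kit from 6000 loaded cells per channel and read at 98 bases on an Illumina HiSeqX. It names Cell Ranger 1.1.0 for alignment (mm10) and for counting UMI. The authors deposited whole-number UMI counts of 17790 genes in 15389 cells (no value was fractional), both libraries in 1 table, and a cell annotation that gives each cell's class. More cells were annotated in CD45pos than the loaded number, and doublets were not removed here. Library totals were 40873786 UMI (CD45neg) and 47477407 UMI (CD45pos).

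The 37 members were rows of that table. UMI were summed per class or group and scaled to CPM; intervals are exact 95% Poisson intervals for levels, conditional binomial intervals for ratios and Clopper-Pearson intervals for shares of cells. They cover counting error only, and with 1 library per group no test was run. A side without UMI was set to 3 counts, and the resulting ratio was not allowed past 1. A gene without UMI in a small group could therefore miss a call as lower and a place among the lowest ratios. The genes named in each comparison were the 8 highest and 4 lowest ratios among members with at least 50 UMI, with Scd1, Fasn, Srebf1, Lpcat1 and Insig1 always, and up to 3 per companion list; further called members were named so that each count is complete. Immune cells of CD45pos were clustered (scanpy 1.11.5, Leiden resolution 1, without members and companion genes). A name needed 3 markers at least 2-fold above the other Immune cells and at least 1 marker among the leading genes. Those genes also could not go against the name, a rule amended after they were seen. The ratio code was tested on simulated counts. Python 3.11.15, numpy 2.4.6, scipy 1.17.1 and pandas 2.3.3 were used.

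The members and lists were chosen with earlier results of these data known. After member levels had been seen in 10 groupings of cells, 4 were carried into the text (Lyz1, Cldn4 and cycling markers in AT2, alveolar macrophage markers in Immune). Alternatives were the mean of per-cell CPM, removal of cells with leukocyte markers and of the deepest cells, a total without the 50 most abundant genes, removal of cells with over 10% mitochondrial UMI, no UMI minimum, thinned or depth-matched cells and other cluster resolutions.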

Additional observations from a re-analysis of the deposited data

Results flagged for a closer look

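Abcg1, the cholesterol exporter, ran in opposite directions in the libraries when the cells deposited as AT1 were set against AT2. In CD45neg it stood at 6.90 against 3.72 CPM, a ratio of 1.86, and in CD45pos at 5.90 against 18.3 CPM, a ratio of 0.323. The difference between the libraries was not tested, because each is a single library. Leukocyte markers stood at 1491 CPM in AT2 of CD45pos and 103 CPM in AT2 of CD45neg, and Abcg1 was highest in Immune cells of both libraries (268 CPM in CD45neg and 99.1 CPM in CD45pos). The part of those values in the difference was not tested.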

How the results depend on the processing

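No paired analysis was possible because each fraction gave 1 library. Most counts of called members stayed within 1.5 times their value: 66 of the planned settings and 45 of those added later, against 10 and 19 that moved, none tested for cause. Shares over all genes were counted only in the main setting of each comparison. In AT1 against AT2 no member was higher, and 1 was with per-cell means, without leukocyte-marker and deepest cells, or with no UMI minimum. The CD45neg Lyz1 quartile contrast called 0 higher, 1 without those cells or with no minimum, and 13 with 10 or more Lyz1 UMI against none. In CD45pos its 5 higher members became 2 without those cells, 3 without mitochondria-rich cells and 13 with 10 or more Lyz1 UMI; its 0 lower became 1 (thinned Lyz1), 2 (middle depth) and 1 (10 or more UMI), and Lpl turned from 2.29 to 0.646 at middle depth. AT2 of CD45neg against CD45pos gave 2 lower members, not 1, with no minimum. For 10 or more Lyz1 UMI against none, the 13 higher in CD45neg became 7 at matched depth (25 tested). In CD45pos 13 became 4 without leukocyte-marker and deepest cells and 4 at matched depth, and the 1 lower became 4 (per-cell means), 2 (without the deepest cell) and 0 (without leukocyte-marker and deepest cells, without the 50 most abundant genes, without mitochondria-rich cells). For Cldn4 the 1 higher member became 2 without leukocyte-marker and deepest cells, without mitochondria-rich cells or at matched depth, 0 without the 50 genes and 7 with thinned Cldn4 (6 of them sterol genes), and Abcg1 turned from 2.02 to 0.664 at matched depth. For cycling cells the 2 lower became 4 (per-cell means) and 1 (matched depth), and the 5 higher became 2 without the 50 genes. The CD45neg sterol ratio for 10 or more Lyz1 UMI ranged from 2.77 to 3.38 over its alternatives. Depth limits the rarer members: Fads2, Elovl6, Dhcr7 and Abcg1 had under 50 UMI over both sides where the 36 Lyz1-rich cells were compared.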
